A study of Mus musculus with 18 samples.

Results

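The 6 genes Cryl1, Fgfr2, Tent5c, Sulf2, Cyp17a1 and Gm4956 were followed across pericentral and periportal mouse hepatocytes in 3 feeding states. They were selected on their periportal-minus-pericentral differences in these same libraries, as strongly periportal genes that belong to none of the pathways usually used to mark that zone. The 6 symbols each matched 1 of the 28030 mouse gene identifiers in the count table, and all 6 were among the 12477 genes tested. Because the zone difference chose them, the values by zone are given as a description with no test. Changes with fasting, averaged over the zones, use no zone difference, but they draw on the same libraries that chose the genes. Errors also differed by zone (Cryl1 at 24 h against fed: SE 0.55 pericentrally, 0.42 periportally). The averaged changes are therefore not wholly free of that choice. For each gene, changes within 1 zone use libraries that are 1 side of the zone differences, which ties them to that choice more closely.

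Blood enters the liver lobule on the portal side and leaves by the central vein. Periportal hepatocytes are known for gluconeogenesis, urea synthesis and amino acid breakdown, while Wnt signals from the central vein sustain glutamine synthesis and much of the drug metabolism of pericentral hepatocytes. The 6 genes stand outside those programmes. Cryl1 encodes a dehydrogenase that oxidises gulonate in the route from glucuronate to pentose sugars. Cyp17a1 is a steroid hydroxylase and lyase known mainly from steroid-producing tissue such as the gonad. Fgfr2 is a receptor tyrosine kinase for fibroblast growth factors (FGFs), and Sulf2 is a secreted sulfatase that trims sulfate groups from heparan sulfate, the sugar chain that FGFs bind together with their receptors. Tent5c encodes a poly(A) polymerase that lengthens the tails of mRNAs in the cytoplasm. Gm4956 is a predicted gene that both GENCODE and RefSeq class as a transcribed pseudogene.

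All mice were wild-type C57BL/6J males aged 12 weeks on chow, trained for 3 days to fast 16 h overnight and feed 8 h by day, and given 20% sucrose in the drinking water with their food on the day of the experiment. The fed groups were killed at clock hour 13 after 4 h of feeding. The 8 h groups lost food and sucrose at that hour and were killed at clock hour 21, and the 24 h groups at clock hour 13 of the next day. Every comparison with the 8 h groups, against fed or against 24 h, therefore differs in time of day as well. Pericentral (PC) and periportal (PP) hepatocytes were isolated after digitonin treatment, which permeabilises cells at one end of the lobule, and each of the 6 groups of zone and state held 3 libraries. Nothing states that replicates came from separate mice or that the zones of one number shared a mouse, so p-values measure the spread between these 18 libraries only.

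Each library held between 18359911 and 26384358 estimated counts. Levels are given in CPM, counts scaled to one total per library with a correction for composition, and in the order replicate 1, 2, 3. The labels fitted the zone markers: Cyp2f2, a periportal cytochrome, was at 132 to 793 CPM in pericentral and 1578 to 3075 CPM in periportal libraries, and Cyp2e1, a pericentral one, at 7611 to 16062 and 325 to 1826 CPM. One library stood apart. Pericentral 24 h replicate 2 had a summed level of 7 periportal markers of 3132 CPM, against 1486 and 1726 CPM in the other 24 h pericentral libraries, and 111 CPM of Glul, the glutamine synthetase of the cells next to the central vein, against 928 and 707 CPM. Results that rest on it are given with and without it. Summed markers of some other cell types were higher in periportal libraries. The 8 cholangiocyte genes summed to 43.6 to 68.3 CPM in periportal and 28.02 to 49.0 CPM in pericentral libraries, with Spp1 at 11.6 to 25.1 against 5.39 to 10.8 CPM, Sox9 at 6.73 to 17.4 against 2.42 to 8.81 CPM, Krt19 at no more than 0.506 CPM and Epcam at 0 in every library. The 9 endothelial genes summed to 3.96 to 39.6 against 3.49 to 12.0 CPM, and the 7 Kupffer and myeloid genes to 0.525 to 24.6 against 0.698 to 6.57 CPM. The 6 erythroid genes summed to 31.8 to 88.0 against 38.0 to 66.8 CPM, with Alas2 alone between 29.2 and 66.5 CPM in all libraries. Their part in the zone differences was not tested. In these bulk samples, fewer cells of a type and less RNA per cell cannot be told apart.

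In the GENCODE annotation of GRCm38 (mm10), each of the 6 genes lies on the minus strand: Cryl1 (ENSMUSG00000021947) at chr14:57274993-57398529, Cyp17a1 (ENSMUSG00000003555) at chr19:46667165-46673172, Fgfr2 (ENSMUSG00000030849) at chr7:130162451-133123350, Sulf2 (ENSMUSG00000006800) at chr2:166073089-166155663, Tent5c (ENSMUSG00000044468) at chr3:100451628-100489324 and Gm4956 (ENSMUSG00000025936) at chr1:21285246-21298312. The Fgfr2 model overlaps another locus. Its upper coordinate, where this minus-strand gene starts, is 130266808 in RefSeq against 133123350 in GENCODE. Ctbp2 also holds 2.69% of the Fgfr2 transcript 31-mers, and Ncoa3 holds 2.1% of those of Sulf2. Some counts of either gene could therefore have been shared. Of the 31-mers of Gm4956, 99.5% occur in no other gene, as do 97.3% to 100% for the others.

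RefSeq promoters (250 bases before to 50 after the start, GRCm38.p6) were matched for 4 of the 6 genes, and are shown because the genes share a zone pattern that the sequence can be set beside. The strand is that of the gene, and capitals mark every match to 11 motifs searched on both strands.
Cryl1 (chr14:57398434-57398733, minus strand): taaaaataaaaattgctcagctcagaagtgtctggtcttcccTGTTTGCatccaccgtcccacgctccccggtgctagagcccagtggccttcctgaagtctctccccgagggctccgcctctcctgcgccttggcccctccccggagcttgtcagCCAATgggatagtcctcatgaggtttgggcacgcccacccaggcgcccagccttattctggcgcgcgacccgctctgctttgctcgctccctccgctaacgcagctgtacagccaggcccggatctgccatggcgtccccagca
Fgfr2 (chr7:130266759-130267058, minus strand): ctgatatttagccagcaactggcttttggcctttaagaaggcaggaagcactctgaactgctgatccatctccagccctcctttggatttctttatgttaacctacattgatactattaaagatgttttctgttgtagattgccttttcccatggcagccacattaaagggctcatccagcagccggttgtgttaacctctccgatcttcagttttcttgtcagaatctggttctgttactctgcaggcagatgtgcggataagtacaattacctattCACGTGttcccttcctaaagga
Sulf2 (chr2:166155236-166155535, minus strand): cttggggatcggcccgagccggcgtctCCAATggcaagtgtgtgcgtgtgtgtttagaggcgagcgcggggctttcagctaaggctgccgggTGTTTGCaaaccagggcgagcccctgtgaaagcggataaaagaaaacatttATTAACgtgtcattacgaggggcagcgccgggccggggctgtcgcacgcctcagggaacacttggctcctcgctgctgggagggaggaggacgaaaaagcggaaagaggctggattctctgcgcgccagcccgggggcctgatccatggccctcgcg
Tent5c (chr3:100489143-100489442, minus strand): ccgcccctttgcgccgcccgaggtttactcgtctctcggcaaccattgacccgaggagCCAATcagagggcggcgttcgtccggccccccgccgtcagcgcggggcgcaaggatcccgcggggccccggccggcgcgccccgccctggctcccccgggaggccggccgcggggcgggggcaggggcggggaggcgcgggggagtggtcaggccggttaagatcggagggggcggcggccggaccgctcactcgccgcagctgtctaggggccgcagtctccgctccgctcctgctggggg
In Cryl1 the capitals are a forkhead motif (TGTTTGC) and a CCAAT box (CCAAT). In Fgfr2 they are an E-box (CACGTG), and in Tent5c a CCAAT box. In Sulf2 they are a CCAAT box, a forkhead motif and, on the other strand, an HNF1 motif (GTTAAT). The window of a further Sulf2 start site, at chr2:166155634-166155933, held the TATA box letters (TATAAA) and no other match. They lay at bases 7 to 12 of the window, which opens 250 bases before the start. Thus 3 of the 4 genes had a CCAAT box, which 37.4% of 32851 promoters of the same length hold, and 2 had TGTTTGC, which 5.07% hold. The counts are of genes, with a match in either Sulf2 window, while the shares are of single windows, so the units differ. The shares of all promoters were 7.15% for CACGTG, 7.10% for GTTAAT and 13.6% for TATAAA. The windows held no TCF/LEF motif (CTTTGAA, in 5.14% of promoters, or CTTTGAT, in 3.73%), no TGTTTAC forkhead motif (3.65%), no HNF4A motif (CAAAGTCCA, 0.475%), no C/EBP motif (TTGCGCAA, 0.183%) and no cAMP response element (TGACGTCA, 1.79%). These matches are letters in a window and no evidence of binding.

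Cryl1 had the largest zone difference of the set in fed mice. It was at 0.760, 0.512 and 2.02 CPM in pericentral fed libraries and at 58.3, 42.8 and 41.8 CPM in periportal ones, a 43.4-fold difference (log2 5.44, SE 0.56). At 8 h it was at 1.72, 0.698 and 2.20 CPM pericentrally and 28.8, 29.9 and 42.3 CPM periportally (log2 4.42, SE 0.53). At 24 h the pericentral libraries held 4.81, 13.1 and 3.26 CPM and the periportal ones 39.3, 30.01 and 35.7 CPM (log2 2.29, SE 0.46). The zones never overlapped, but the 3 pericentral 24 h libraries all lay above every pericentral library of the other states, while the 3 periportal 24 h libraries all lay below every periportal fed one. As the mean of the log2 changes in both zones, Cryl1 rose 2.19-fold from fed to 24 h (log2 1.13, SE 0.35, adjusted p = 0.0224, edgeR). That call was lost without pericentral 24 h replicate 2 (log2 0.72, adjusted p = 0.0635, edgeR), without pericentral fed replicate 1 (1.02, 0.0650) or without pericentral fed replicate 2 (0.96, 0.0641). At 8 h the zone average was level with fed (log2 0.01, SE 0.34, adjusted p = 0.992, edgeR).

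Within the zones, which share libraries with the differences that chose the gene, Cryl1 rose in pericentral hepatocytes from fed to 24 h (log2 2.71, SE 0.55, adjusted p = 0.00340, edgeR), and the rise was 1.89 (adjusted p = 0.0125) without the library that stood apart and 3.47 without pericentral fed replicate 3. It was no longer called with only those 2 groups in the fit (adjusted p = 0.0524). From 8 h to 24 h it also rose pericentrally (log2 2.19, adjusted p = 0.0211, edgeR), though not without pericentral 24 h replicate 2 (1.37, adjusted p = 0.0903), pericentral 8 h replicate 1 (adjusted p = 0.0716) or replicate 2 (adjusted p = 0.0811). The periportal change from fed to 24 h was log2 -0.44 (SE 0.42, adjusted p = 0.519, edgeR).

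Cyp17a1, the steroid hydroxylase, had the smallest fed zone difference and the widest spread. In fed mice it was at 1.66, 1.93 and 3.89 CPM pericentrally and 4.00, 11.03 and 14.4 CPM periportally (log2 1.98, SE 0.64). At 8 h the values were 2.13, 3.30 and 1.59 CPM against 5.90, 37.4 and 20.0 CPM (log2 3.18, SE 0.65, or 2.47 without periportal 8 h replicate 2). At 24 h they were 3.52, 5.85 and 4.30 CPM against 21.0, 42.5 and 24.97 CPM (log2 2.69, SE 0.62). The lowest periportal library, fed replicate 1, lay just above the highest pericentral fed library, and the periportal 8 h libraries covered a wide range that overlapped both other states. Averaged over the zones, Cyp17a1 rose 2.35-fold by 24 h (log2 1.23, SE 0.44, adjusted p = 0.0423, edgeR). This call lay close to the threshold: it was lost in 15 of 26 alternatives. It was kept on leaving out pericentral fed replicate 3, periportal fed replicate 3, periportal 8 h replicate 1 or 2, or periportal 24 h replicate 1, and lost on leaving out any of the other 13 libraries, with adjusted p from 0.0139 to 0.0983 across those omissions and log2 values from 1.05 to 1.47. In periportal hepatocytes the 3 libraries at 24 h all lay above the 3 fed ones, with log2 1.59 (SE 0.58, adjusted p = 0.0716, edgeR). DESeq2 (adjusted p = 0.0430), limma-voom (adjusted p = 0.0365) and edgeR with the replicate block (log2 1.65, adjusted p = 0.0154) called that difference, as did edgeR without periportal 8 h replicate 1 (adjusted p = 0.0266) or 2 (adjusted p = 0.0480).

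Fgfr2, the FGF receptor, was a near-absent transcript in fed pericentral hepatocytes, at 0.899, 1.34 and 1.48 CPM, against 45.7, 33.2 and 43.5 CPM in periportal ones (33.0-fold, log2 5.05, SE 0.43). At 8 h it was at 1.97, 1.44 and 2.67 CPM against 58.9, 48.6 and 46.4 CPM (log2 4.65, SE 0.41). At 24 h the levels were 2.38, 9.41 and 4.35 CPM against 39.7, 34.5 and 57.5 CPM (log2 3.02, SE 0.37). Periportal levels overlapped between fed and 24 h, and the pericentral 24 h libraries all lay above the fed ones. Averaged over the zones, Fgfr2 rose 2.17-fold by 24 h (log2 1.12, SE 0.27, adjusted p = 0.00536, edgeR), and 0.77 (adjusted p = 0.0101) remained without pericentral 24 h replicate 2. The pericentral rise alone was log2 2.13 (SE 0.43, adjusted p = 0.00289, edgeR), or 1.43 (adjusted p = 0.0100) without that library, and the periportal change was log2 0.11 (SE 0.33, adjusted p = 0.870, edgeR). From 8 h to 24 h the pericentral rise (log2 1.41, adjusted p = 0.0439, edgeR) was lost in 19 of 26 alternatives, among them the omission of pericentral 24 h replicate 2 (0.70, adjusted p = 0.230) and the replicate block (adjusted p = 0.0623), with adjusted p from 0.00678 to 0.230 over the omission of single libraries. Of these, it was kept on leaving out replicate 1 of the pericentral or replicate 2 or 3 of the periportal 24 h libraries, and lost without any of the other 15.

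Sulf2, the heparan sulfate sulfatase, was at 1.69, 2.52 and 1.44 CPM in fed pericentral and 32.8, 26.4 and 25.9 CPM in fed periportal libraries (15.1-fold, log2 3.91, SE 0.35). At 8 h it was at 1.93, 5.72 and 4.64 CPM against 25.7, 40.6 and 49.6 CPM (log2 3.24, SE 0.32). At 24 h it was at 6.02, 7.61 and 5.83 CPM against 32.5, 39.2 and 46.0 CPM (log2 2.59, SE 0.31). The 3 pericentral 24 h libraries exceeded every fed and 8 h pericentral library, whereas the periportal groups overlapped one another. Averaged over the zones, Sulf2 rose at 24 h (log2 1.13, SE 0.23, adjusted p = 0.00125, edgeR), a call that held in all 26 alternatives. It also rose at 8 h (log2 0.78, SE 0.23, adjusted p = 0.0197, edgeR), though not without pericentral 8 h replicate 2 (0.63, adjusted p = 0.0616), without pericentral fed replicate 3 (0.70, adjusted p = 0.0561) or by limma-voom (adjusted p = 0.0684). The pericentral rise at 24 h was log2 1.79 (SE 0.35, adjusted p = 0.00202, edgeR) and the periportal change 0.47 (SE 0.29, adjusted p = 0.288, edgeR).

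Tent5c, the poly(A) polymerase, had the largest zone-averaged change with fasting of the 6. Fed libraries held 0.933, 0.473 and 1.21 CPM pericentrally and 10.9, 10.03 and 9.04 CPM periportally (11.4-fold, log2 3.51, SE 0.45). At 8 h they held 3.93, 4.00 and 2.63 CPM against 13.9, 43.4 and 25.5 CPM (log2 2.97, SE 0.39). At 24 h they held 3.59, 3.53 and 2.92 CPM against 18.1, 27.0 and 40.9 CPM (log2 3.09, SE 0.39). In each zone every fasted library lay above every fed one, and the 8 h and 24 h libraries overlapped. Averaged over the zones, Tent5c rose 3.32-fold by 8 h (log2 1.73, SE 0.29, adjusted p = 0.000463, edgeR) and was 3.31-fold above fed at 24 h (log2 1.73, SE 0.29, adjusted p = 0.000355, edgeR). Both calls held in all alternatives. The 24 h level differed from the 8 h level by log2 -0.0024 (95% interval -0.57 to 0.57).

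Within the zones, Tent5c rose pericentrally at 8 h (log2 2.0, SE 0.47, adjusted p = 0.00967, edgeR) and at 24 h (log2 1.94, SE 0.47, adjusted p = 0.00846, edgeR), neither of which limma-voom called (adjusted p = 0.115 and 0.0925). It rose periportally at 8 h (log2 1.46, SE 0.36, adjusted p = 0.0125, edgeR) and at 24 h (log2 1.52, SE 0.36, adjusted p = 0.00791, edgeR). The periportal 8 h call was lost without periportal 8 h replicate 2 (0.98, adjusted p = 0.0657) and with only those groups in the fit (adjusted p = 0.0688).

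Gm4956, the transcribed pseudogene, sits beside Gsta3 and Khdc1a in the RefSeq order of genes. It was at 0.726, 1.46 and 1.32 CPM in fed pericentral and 46.3, 34.2 and 41.8 CPM in fed periportal libraries (35.0-fold, log2 5.13, SE 0.51). At 8 h it was at 0.492, 1.44 and 1.28 CPM against 24.8, 34.8 and 50.7 CPM (log2 5.10, SE 0.52), and at 24 h at 1.41, 6.36 and 1.98 CPM against 20.6, 23.9 and 24.7 CPM (log2 2.80, SE 0.45). Its 24 h periportal libraries were tightly grouped and all below the fed and 8 h ones, and 1 pericentral library, 24 h replicate 2, stood above the other 8. No fasting change of Gm4956 passed the test: the zone average was log2 0.34 at 24 h (SE 0.33, adjusted p = 0.465, edgeR) and -0.15 without that library. The periportal difference between 24 h and fed was log2 -0.82 (SE 0.39, adjusted p = 0.169, edgeR), called by limma-voom (adjusted p = 0.0373), with only those groups in the fit (adjusted p = 0.00331) and without pericentral 24 h replicate 2 (adjusted p = 0.0414). The pericentral one was 1.51 (SE 0.53, adjusted p = 0.0563, edgeR), called by DESeq2 (adjusted p = 0.0240) and without pericentral 24 h replicate 1 (1.87, 0.0164) or replicate 3 (1.75, 0.0489), and 0.53 (adjusted p = 0.449) without replicate 2.

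**Figure D1:**
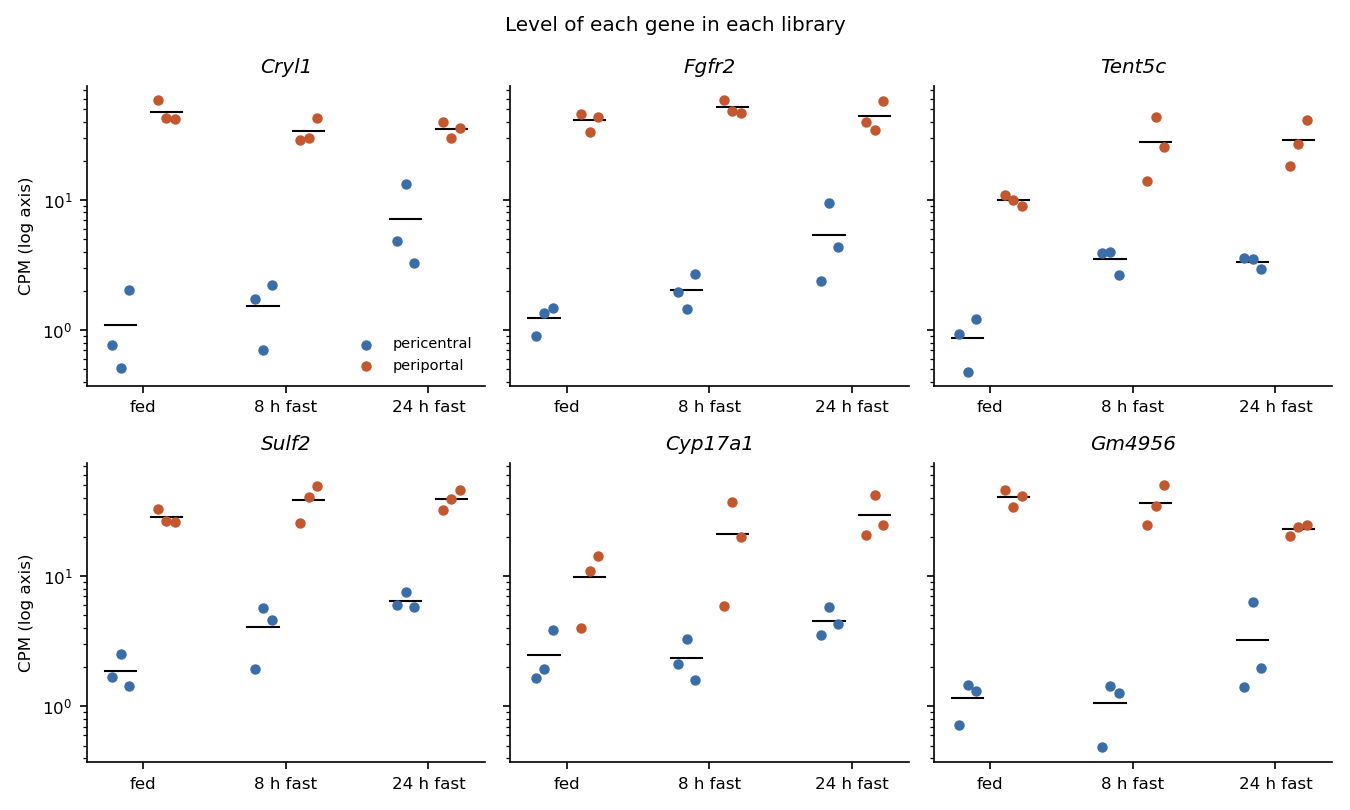
Level of each of the 6 genes in CPM (log axis) in each of the 18 libraries, by feeding state. Points are libraries in the order replicate 1 to 3 and black lines are means of 3. Periportal points lie above pericentral points in every state, and the pericentral 24 h replicate 2 point is the highest pericentral one for 5 of the 6: Cryl1 (13.1 CPM), Fgfr2 (9.41 CPM), Sulf2 (7.61 CPM), Gm4956 (6.36 CPM) and Cyp17a1 (5.85 CPM).

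Read per kilobase of the longest annotated transcript, which allows levels to be compared between genes, the 2 most abundant in fed periportal hepatocytes were Gm4956 at 35.5 ± 5.36 and Cryl1 at 31.8 ± 6.18 CPM per kb (SD, n = 3), whose spreads overlapped. Fgfr2 followed at 9.21 ± 1.51, Sulf2 at 6.20 ± 0.841, Cyp17a1 at 4.08 ± 2.20 and Tent5c at 1.77 ± 0.168 CPM per kb. At 24 h Cyp17a1 had reached 12.3 ± 4.77 and Tent5c 5.08 ± 2.04 CPM per kb, while Gm4956 was at 20.1 ± 1.91. In fed pericentral hepatocytes all 6 were between 0.154 and 1.04 CPM per kb.

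Each of the 6 genes had all periportal libraries above all pericentral libraries in all 3 states. Among all tested genes the share with that order was 14.4% in fed, 12.1% at 8 h and 10.5% at 24 h. Nothing is read from the members' count, since the zone order chose them. By size of the fed zone difference they ranked 17 (Cryl1), 22 (Gm4956), 23 (Fgfr2), 46 (Sulf2), 65 (Tent5c) and 242 (Cyp17a1) of 12477. The median zone difference of the 6 was log2 4.48 in fed, 3.83 at 8 h and 2.75 at 24 h, beside medians of 0.00, 0.01 and 0.00 over all genes.

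The 24 h difference from the fed zone gap was not alike for the 6. As a description, the periportal-minus-pericentral log2 difference was lower at 24 h than in fed by 3.15 for Cryl1 (written as -3.15, SE 0.70), and the change was -2.33 (SE 0.66) for Gm4956, -2.03 (SE 0.55) for Fgfr2 and -1.32 (SE 0.45) for Sulf2. For Tent5c it was -0.42 (SE 0.59), and for Cyp17a1 the gap was wider by 0.71 (SE 0.87), both within 1 SE of no change. Without pericentral 24 h replicate 2 the 24 h zone difference was 3.10 for Cryl1, 3.72 for Fgfr2 and 3.78 for Gm4956, each still below its fed value, and 2.73 for Sulf2, 3.13 for Tent5c and 2.92 for Cyp17a1.

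**Figure D2:**
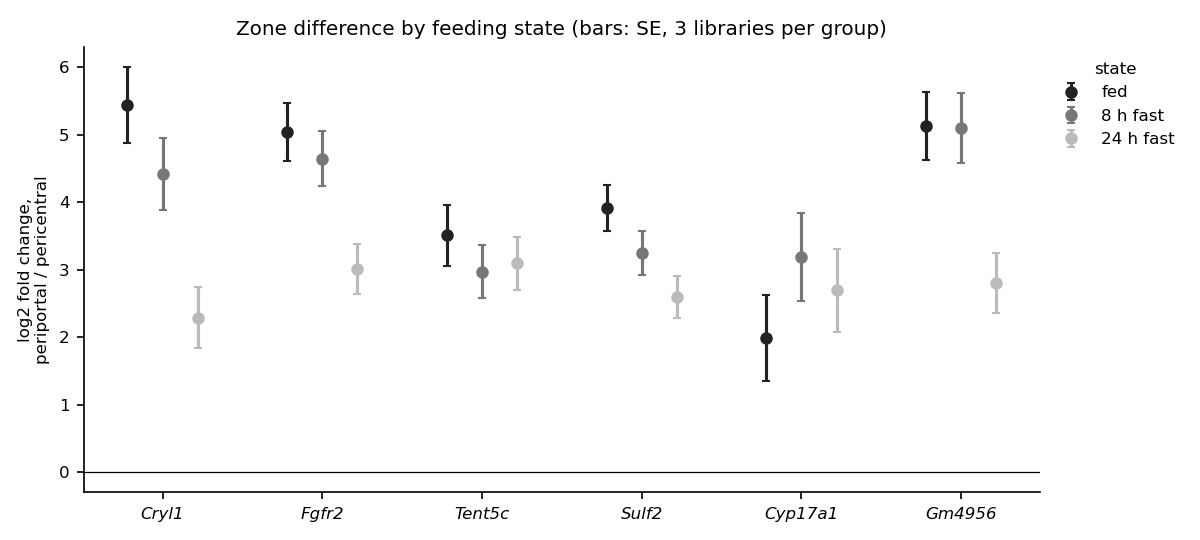
Zone difference of each gene as the log2 fold change of periportal over pericentral hepatocytes, in fed, 8 h and 24 h states, with bars of 1 SE from the edgeR fit (3 libraries per group). The 24 h point is the lowest of the 3 for Cryl1, Fgfr2, Sulf2 and Gm4956, and Tent5c stays between 2.97 and 3.51.

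The same quantity was set beside the periportal marker genes, because their level in the pericentral libraries also moved. The pericentral mean of Cryl1 was 2.31% of its periportal mean in fed, 4.58% at 8 h and 20.2% at 24 h, or 11.5% without pericentral 24 h replicate 2. For Fgfr2 the series was 3.04%, 3.95% and 12.3% (7.67% without that library), and for Gm4956 2.87%, 2.91% and 14.1% (7.34%). Sulf2 went from 6.63% through 10.6% to 16.5% (15.1%), and Tent5c from 8.71% through 12.8% to 11.7% (11.4%). Cyp17a1 ran from 25.5% in fed through 11.1% to 15.4% (13.3%). All 7 periportal markers had a higher pericentral share at 24 h than in fed. Ctsc, a lysosomal protease, went from 3.38% to 17.6% (10.3% without the library), Sds, the serine dehydratase, from 3.32% to 17.0% (12.2%), and Hal, the histidine lyase, from 8.29% to 28.9% (21.1%). Cyp2f2 went from 8.26% to 27.5% (18.8%), and Aldh1b1, an aldehyde dehydrogenase, from 0.943% to 3.23% (2.59%). The summed markers in pericentral libraries were 657 to 1055 CPM in fed, 1004 to 1177 CPM at 8 h and 1486 to 3132 CPM at 24 h. Their part in the pericentral rise of the members was not tested.

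**Figure D3:**
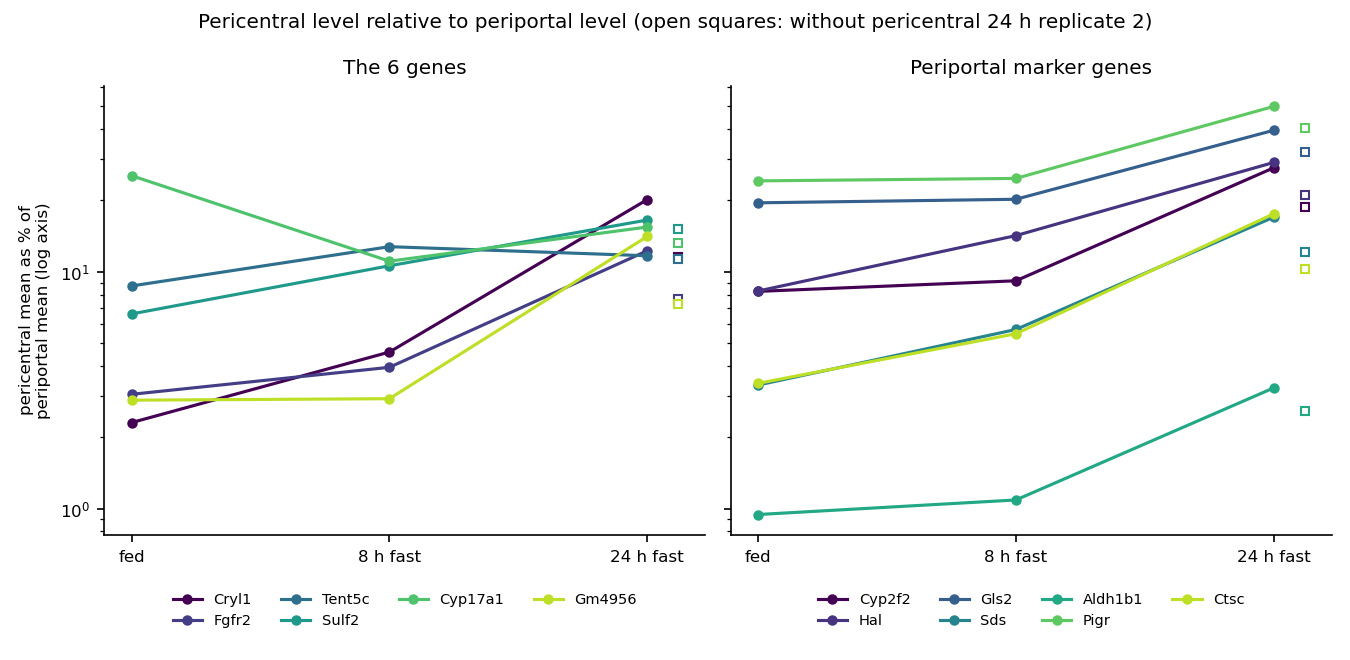
Pericentral mean as a percentage of the periportal mean (log axis) by feeding state, for the 6 genes (left) and 7 periportal marker genes (right), with open squares for the 24 h value without pericentral 24 h replicate 2. Cryl1, Fgfr2 and Gm4956 climb from about 2.31% to 3.04% in fed to between 12.3% and 20.2% at 24 h, and Ctsc and Sds climb over a similar range.

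Counted together, 5 of the 6 genes were called higher at 24 h than in fed, averaged over zones, and Gm4956 was the one not called. The average weighs both zones equally on the log2 scale, whatever their level. The libraries behind this count also entered the zone differences that chose the genes. Across all genes 34.5% were called in either direction in that comparison. The count was 3 without pericentral 24 h replicate 2, without pericentral fed replicate 1 or without pericentral fed replicate 2. At 8 h, 2 of the 6 (Tent5c and Sulf2) were called against 26.4% of all genes, a share near the background. Between 8 h and 24 h only Cryl1 was called, beside 20.2% of all genes, and the call was lost on leaving out any of 7 libraries: in the pericentral groups 24 h replicate 2 and 8 h replicates 1 and 2, and in the periportal groups 24 h replicates 1 and 3 and 8 h replicates 1 and 2 (adjusted p from 0.0570 to 0.0891 in edgeR). The median change of the 6 at 24 h was log2 1.13, and that of all genes 0.01. Of the 5 genes called, the periportal changes from fed to 24 h were log2 -0.44 for Cryl1, 0.11 for Fgfr2 and 0.47 for Sulf2, none called. They were 1.52 for Tent5c, called, and 1.59 for Cyp17a1, not called. Mean Cryl1 went from 1.10 to 7.06 CPM pericentrally and from 47.6 to 35.0 CPM periportally.

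Within pericentral hepatocytes, edgeR called 1 of 6 at 8 h (Tent5c, background 13.8%), 4 of 6 at 24 h (Cryl1, Fgfr2, Tent5c and Sulf2, background 21.8%) and 2 of 6 between 8 h and 24 h (Cryl1 and Fgfr2, background 9.71%). The last count was 0 without pericentral 24 h replicate 2 or without pericentral 8 h replicate 1 or 2. Within periportal hepatocytes it called Tent5c alone at 8 h (background 14.4%) and at 24 h (background 19.6%). Between 8 h and 24 h it called 0 of 6 periportally (background 7.46%), with 0 at an unadjusted p under 0.05 and 0 by DESeq2 or limma-voom. Each of these changes within 1 zone uses libraries that are 1 side of the zone differences that chose the genes. The genes behind the background shares were not chosen that way, so the counts and those shares are not alike. Whether the calls differ between zones was not tested, because the difference between zones chose the genes.

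**Figure D4:**
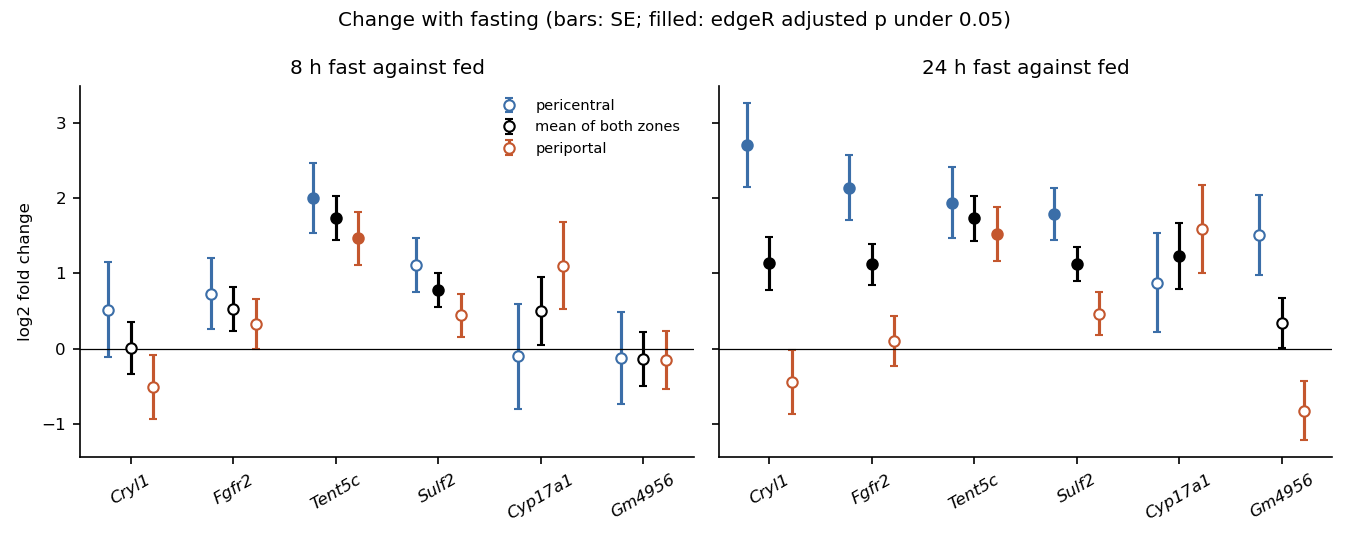
Log2 fold change of each gene from fed to 8 h (left) and from fed to 24 h (right) in pericentral hepatocytes, in periportal hepatocytes and as the mean of both zones, with bars of 1 SE. Filled points passed an adjusted p of 0.05 in edgeR, and Tent5c is filled throughout. At 8 h Sulf2 is also filled, for the mean only. At 24 h Cryl1, Fgfr2 and Sulf2 are filled for pericentral hepatocytes and the mean but not for periportal ones, and Cyp17a1 for the mean only.

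The genes most like each member were sought by the root mean square difference of centred log2 CPM over the 18 libraries, among 10087 genes. Since zone dominates this measure, the values only describe. For Cryl1 the nearest was Ctsc (difference 0.36, against a median of 2.33 over all genes), then Clic5 (0.64), a chloride channel protein, and Olfm3 (0.75). Ctsc was also nearest to Fgfr2 (0.50), followed by Sstr2 (0.67), a somatostatin receptor, and Ctnnbip1 (0.70), which binds beta-catenin. Ctnnbip1 was nearest to Sulf2 (0.49), followed by Cyp2f2 (0.50) and Etnppl (0.52). The nearest to Tent5c were the amino acid enzymes Hal (0.64), Sdsl (0.69) and Gldc (0.72), and those to Cyp17a1 were Sdsl (0.57), the glutaminase Gls2 (0.74) and Cyp39a1 (0.80). Gm4956 was closest to Olfm3 (0.63), Aqp4 (0.71), a water channel, and Cyp2f2 (0.80). Among the members themselves, Fgfr2 and Gm4956 (0.56) and Cryl1 and Fgfr2 (0.57) were most alike, and Cryl1 and Cyp17a1 least (1.44).

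The pathways around the members were then examined by zone averaged over the states, with the members themselves left out. Of 87 related genes tested, 34 (39.1%) were called, 20 higher periportally and 14 lower, beside 20.3% of all genes called in either direction. The lists differed in direction.

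Around Fgfr2, 8 of 18 tested genes of FGF signalling (44.4%) were called higher periportally and 0 called lower, with a list median of log2 0.26. The count was 5 without pericentral 24 h replicate 1 or without periportal 24 h replicate 3. The paralog Fgfr1 was at 14.2, 7.35 and 6.36 CPM in fed, 7.03, 7.38 and 9.74 CPM in 8 h and 10.6, 4.16 and 13.8 CPM in 24 h periportal libraries, and between 0.193 and 0.919 CPM in all 9 pericentral ones (log2 3.94, SE 0.31, adjusted p = 2.45e-07, edgeR). It was at 0.242, 0.788 and 0.779 CPM in the pericentral fed libraries and at 0.469, 0.919 and 0.643 CPM in the pericentral 24 h ones, ranges that overlap. The summed endothelial markers, at 3.96 to 39.6 CPM in periportal and 3.49 to 12.0 CPM in pericentral libraries, reached higher values periportally; their part in this difference was not tested. Fgfr4, the main hepatocyte FGF receptor, differed by log2 0.26 (SE 0.10, adjusted p = 0.0844, edgeR) and Fgfr3 by 0.33 (SE 0.14, adjusted p = 0.104, edgeR). The feedback inhibitor Spry4 was higher periportally (log2 2.18, SE 0.28, adjusted p = 3.39e-05, edgeR), as were the transcription factor Etv5 (1.11, SE 0.21, adjusted p = 0.000915) and the inhibitor Spred2 (0.38, SE 0.09, adjusted p = 0.00446).

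Around Sulf2, 6 of 20 tested heparan sulfate genes (30%) were called higher periportally and 0 called lower, beside 20.3% of all genes called in either direction. The list median was log2 0.07. Those called included the core proteins Gpc1 (log2 1.71, SE 0.16, adjusted p = 1.99e-06, edgeR), Gpc4 (0.50, SE 0.06, adjusted p = 8.44e-06) and Sdc1 (0.68, SE 0.09, adjusted p = 5.03e-05), and the chain polymerase Ext1 (0.55, SE 0.08, adjusted p = 0.000109). The paralog Sulf1 did not reach the filter on low counts, at 0 to 0.164 CPM.

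Around Cryl1 the direction was opposite to that of Cryl1 itself. Of 8 tested genes of the glucuronate and uronate route, 0 were called higher periportally and 5 (62.5%) called lower. Gulo, which makes the precursor of vitamin C from gulonolactone, was at 513 CPM on average pericentrally and 37.1 CPM periportally (log2 -3.76, SE 0.36, adjusted p = 4.55e-06, edgeR). The gluconolactonase Rgn followed with log2 -3.28 (SE 0.36, adjusted p = 1.97e-05), and the sorbitol dehydrogenase Sord (-0.57, adjusted p = 2.81e-05) and Akr1a1 (-0.44, adjusted p = 8.58e-05), a reductase that makes gulonate, were lower by less. Gulo and Cryl1 act on 2 branches from gulonate, and their transcripts were higher in opposite zones.

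Around Cyp17a1, 2 of 18 tested steroid genes were called higher periportally and 9 called lower (61.1% in either direction). The reductase Akr1c6 (log2 -2.14, SE 0.16, adjusted p = 1.54e-07, edgeR), the dehydrogenase Hsd3b7 (-1.38, SE 0.11, adjusted p = 1.10e-07) and the electron carrier Cyb5a (-0.73, SE 0.09, adjusted p = 1.14e-05) were lower, and Hsd11b1, which regenerates active glucocorticoid, was higher (0.99, SE 0.11, adjusted p = 4.96e-06). Around Tent5c, 4 of 23 genes of poly(A) tail control (17.4%) were higher and 0 lower, a share near the background: the deadenylation cofactors Btg2 (1.46, SE 0.28, adjusted p = 0.00191), Btg1 (0.66, SE 0.11, adjusted p = 0.000271) and Tob2 (0.46, SE 0.09, adjusted p = 0.00220) and the binding protein Pabpc4 (0.24, SE 0.05, adjusted p = 0.00423). The paralog Tent5a differed by log2 1.79 with a large error (SE 1.02, adjusted p = 0.259, edgeR), and Tent5b and Tent5d did not reach the filter.

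**Figure D5:**
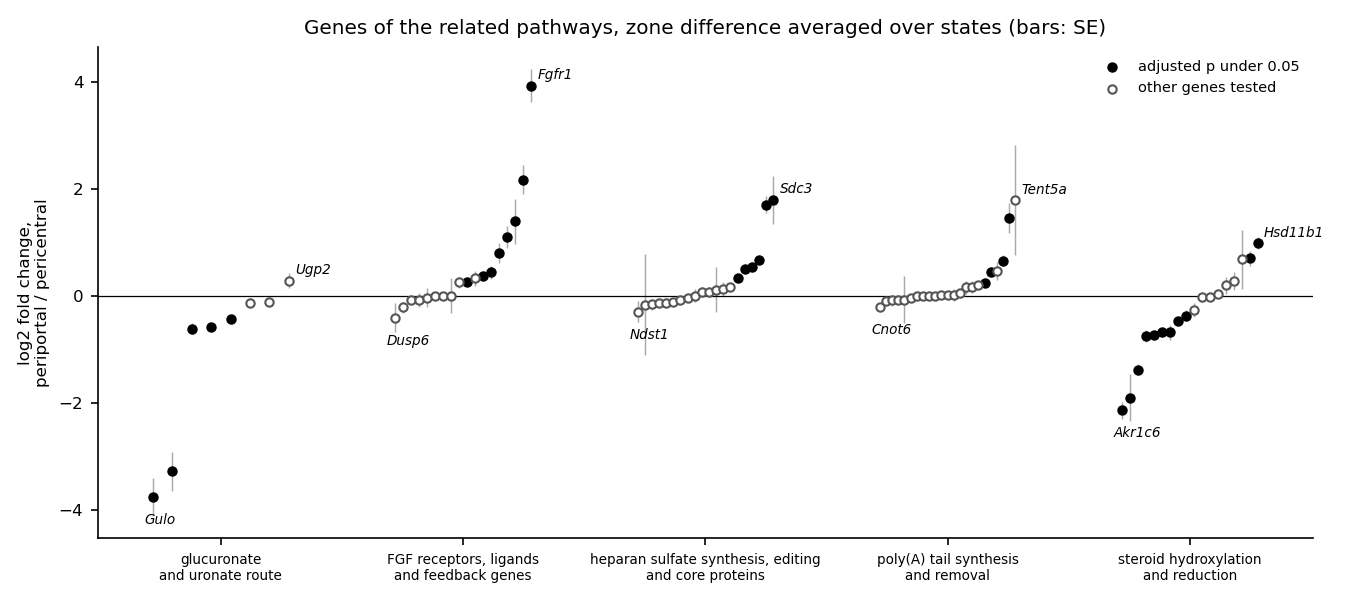
Zone difference averaged over states (log2 fold change, periportal over pericentral, bars of 1 SE) for the 87 tested genes of the 5 related lists, ordered by value within each list. Filled points passed an adjusted p of 0.05 in edgeR. They lie above 0 for the FGF, heparan sulfate and poly(A) lists, below 0 for the uronate list and mostly below 0 for the steroid list, with Fgfr1 at 3.94 and Gulo at -3.76 as the extremes.

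With fasting, the related genes showed no common direction. At 24 h against fed, averaged over zones, 34 of 87 (39.1%) were called, 17 higher and 17 lower, near the 34.5% of all genes. The poly(A) list had 8 of 23 higher and 2 lower, the FGF list 4 of 18 higher and 2 lower (3 called without pericentral 24 h replicate 3), the heparan sulfate list 2 of 20 higher and 4 lower, the uronate list 1 of 8 higher and 3 lower, and the steroid list 2 of 18 higher and 6 lower. Among the paralogs, Fgfr3 fell by 1.67 on the log2 scale (SE 0.17, adjusted p = 2.56e-06, edgeR), Fgfr1 differed by 0.11 (SE 0.37, adjusted p = 0.849) and Fgfr4 by -0.21 (SE 0.12, adjusted p = 0.222), while Fgfr2 rose.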

How the data were processed

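Total RNA of 18 hepatocyte libraries was sequenced. The authors deposited a table of estimated counts per gene; kallisto 0.46.0 and build mm10 are named in the submitters' processing notes, and the annotation used is not given in the sources used here. Estimated counts were rounded, and edgeR 4.0.16 (R 4.3.3) was fitted once to the 6 groups together by robust quasi-likelihood with TMM scaling, on the 12477 genes that passed filterByExpr. P-values were adjusted by Benjamini-Hochberg over all genes tested, with calls at an adjusted p under 0.05. The SE is the log2 fold change divided by the square root of F. Alternatives were DESeq2 1.42.0, limma-voom 3.58.1, other filters and scalings, a replicate block and the omission of each library. The members and the related lists were chosen with earlier results of these data known. Named were all members, their nearest paralogs, up to 4 called genes of each list with the smallest p by zone, and the 3 genes most like each member. The correlation of same-numbered libraries' deviations from their group means was 0.121 to 0.165 between zones at 24 h and -0.12 to 0.206 elsewhere. The highest value, 0.206, was between periportal libraries of 8 h and 24 h, so the correlations do not show that the numbers pair the zones. The main fit used no pairing, and the replicate block gave each number 1 effect across all 6 groups. Of 20 listed steroid genes, Sts was not matched.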

Additional observations from a re-analysis of the deposited data

Results flagged for a closer look

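From fed to 24 h, every pericentral library of Cryl1 lay higher (log2 2.71) and every periportal library lower (log2 -0.44), which gave a change of the zone difference of -3.15. The difference between the zones was not tested, because zone differences chose the gene. In pericentral hepatocytes the rise was 1.89 without replicate 2 of the 24 h group.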

How the results depend on the processing

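The 3 libraries a group limit precision, and several pericentral levels lie near 1 CPM. The counts of the 6 genes called changed as follows. At 24 h against fed, averaged over zones, 5 became 3 with no filter and 4 by limma-voom. At 24 h against 8 h, averaged, 1 became 0 with no filter or with only the groups of the contrast. At 8 h, averaged, 2 became 1 by limma-voom and 3 with only those groups. Pericentrally at 8 h, 1 became 2 by DESeq2 or with a filter at 1 CPM and 0 by limma-voom. At 24 h against fed, 4 became 5 by DESeq2 and 3 by limma-voom or with only those groups, and at 24 h against 8 h, 2 became 3 by DESeq2, 1 by limma-voom or with no filter and 0 with only the groups of the contrast. Periportally at 8 h, 1 became 0 with only those groups, and at 24 h, 1 became 2 by DESeq2 or with only those groups and 3 by limma-voom. With the replicate block the counts were 2 for pericentral 8 h against fed, 1 for pericentral 24 h against 8 h and 2 for periportal 24 h against fed (Cyp17a1 gained), and no other count moved; each library correlated best with one of its own number in 10 of 18 cases. The block gives each replicate number 1 effect across all 6 groups, and does not pair the zones within a state. The 24 h zone differences with the block were 2.27 for Cryl1, 3.01 for Fgfr2, 3.06 for Tent5c, 2.59 for Sulf2, 2.67 for Cyp17a1 and 2.88 for Gm4956.

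Leaving out each library in turn gave 3 to 5 genes at 24 h against fed, averaged, 0 to 2 at 24 h against 8 h, averaged, and 1 to 2 at 8 h, averaged. Pericentrally it gave 4 to 5 at 24 h against fed, 0 to 3 at 24 h against 8 h and 1 to 2 at 8 h, and periportally 1 to 2 at 24 h and 0 to 1 at 8 h. Signs turned for changes near 0, with these ranges: Cryl1 -0.16 to 0.39 at 8 h, averaged, and -0.053 to 0.25 periportally at 24 h against 8 h; Cyp17a1 -0.41 to 0.37 pericentrally at 8 h; Fgfr2 -0.14 to 0.25 periportally at 24 h; Sulf2 -0.21 to 0.24 periportally at 24 h against 8 h. For Gm4956 they were -0.29 to 0.040 at 8 h, averaged, -0.38 to 0.23 pericentrally and -0.45 to 0.074 periportally at 8 h, -0.15 to 0.52 at 24 h, averaged, and -0.0095 to 0.65 at 24 h against 8 h. For Tent5c at 24 h against 8 h they were -0.18 to 0.24 averaged, -0.25 to 0.022 pericentrally and -0.29 to 0.54 periportally. By DESeq2, Cryl1 at 8 h, averaged, was -0.0066. Tent5c at 24 h against 8 h, averaged, was 0.0040 with DESeq2 size factors, 0.061 by limma-voom, 0.011 with the block and 0.00098 when scaled without the 20 most abundant genes. The cause of these shifts was not tested. No scaling moved the median of all genes by more than 0.0205. The fit with only the groups of a contrast was not run for the zone averaged over states, which uses all 6. The related genes called numbered 28 to 37 under every alternative run, and the FGF genes by zone 5 to 9, against 34 and 8.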
